A study of Homo sapiens with 9 samples.

Results

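Cholesterol and fatty acid synthesis genes were followed in nascent transcription of MEL624, a human melanoma cell line, after loss of PCIF1. The genes are 34 named enzymes, regulators and transporters of sterol and fatty acid metabolism. They were chosen by name, with earlier results of these data known. All 34 were found among 58336 listed genes by Ensembl identifier and GENCODE symbol. The groups were PCIF1 KO1 and PCIF1 KO2, which are 2 knockout clones of the line (each group is therefore 1 clone), and control cells of the same line, wild type for PCIF1 and carrying a random guide RNA. Each group had 3 samples labelled as replicates, 9 libraries in all, and nothing in the labels says whether they came from separate cultures. They were measured by PRO-seq, a run-on assay that maps RNA polymerases engaged in transcription. PCIF1 is the methyltransferase that adds a methyl group to an adenosine next to the mRNA cap, and the comparison asks how transcription of these genes differed without it.

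Because the deposited table holds 1 mean per group, values are given without error or test, and no gene below is called significantly changed. Levels are the authors' mean normalized counts per kb of gene length, and log2 ratios were taken on the mean normalized count (the level times length) after adding a pseudocount of 1. Comparison was limited to the 17149 genes whose count, averaged over the 3 groups, was 10 or more. A gene is described as higher or lower by at least 1.5-fold where its log2 ratio reached 0.585 in size. The median log2 ratio of all compared genes was -0.00 for KO1 over control and -0.00 for KO2 over control. A larger share of cells transcribing a gene and more transcription per cell cannot be told apart in such bulk values. PCIF1 itself had mean normalized counts of 269.6 in KO1, 239.3 in KO2 and 239.5 in control. An edit of its coding sequence need not alter its nascent transcription, so its level here cannot serve as a test of the knockout. Of 8 melanocyte markers, MITF had counts of 142, 259 and 169 in KO1, KO2 and control and PMEL 21.3, 23.8 and 48.4, whereas TYR was listed at 0 in each group and TYRP1, DCT, MLANA, SOX10 and S100B stayed under 10, so most defining markers of the labelled cell type were at or near 0. The summed counts of the 2 that passed the minimum, MITF and PMEL, were 163, 283 and 217 in KO1, KO2 and control. Of 8 markers of other cell types, CD3E was listed at 0, PTPRC had at most 1.10 counts, KRT8 had 371, 374 and 385 counts in KO1, KO2 and control, EPCAM had 9.95, 4.48 and 12.6, and COL1A1 had 27.8, 18.4 and 17.97. The summed counts of the 2 that passed the minimum, KRT8 and COL1A1, were 398, 392 and 403, and any part of either marker list in the results below was not tested.

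Cells make cholesterol from acetyl-CoA, first through the mevalonate arm to farnesyl diphosphate and then, once squalene has been formed, through lanosterol to cholesterol. Fatty acids start from the same acetyl-CoA. SREBP transcription factors switch on the genes of both pathways: SCAP carries them from the endoplasmic reticulum to the Golgi, where they are cut and freed, and INSIG proteins hold SCAP back when sterols are plentiful. SREBPs bind DNA together with NF-Y, which recognises the CCAAT box, and Sp1, which recognises GC boxes.

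RefSeq promoter windows (GRCh38.p14, 250 bases before to 50 after an annotated start) were found for 30 of the 34 genes, 41 windows in all, with no entry used for ACAT2, FDFT1, SQLE and FASN. Shown here are the first listed window of the 4 enzymes and transporters with the highest ratios to control in KO2 among those over 1.5-fold in the sterol arm and transport (CYP51A1, SC5D, STARD4 and LSS), of HMGCS1 in the mevalonate arm, of SREBF2, which encodes the sterol-directed SREBP, and of MSMO1, a sterol enzyme gene that lay below control. Each sequence runs 5′ to 3′ on the gene's strand over 200 bases before the annotated start and ends with the start base. The regions are CYP51A1 at chr7:92134477-92134677 (minus strand), SC5D at chr11:121292571-121292771 (plus strand), STARD4 at chr5:111512535-111512735 (minus strand), LSS at chr21:46228774-46228974 (minus strand), HMGCS1 at chr5:43313412-43313612 (minus strand), SREBF2 at chr22:41832905-41833105 (plus strand), MSMO1 at chr4:165327469-165327669 (plus strand). Capitals mark the start base and matches, on either strand, to 4 motifs, where a match on the opposite strand appears as the reverse complement. The core of a sterol regulatory element was searched as TCACNCCAC. The box bound by NF-Y was searched as CCAAT. A GC box was searched as GGGCGG, and an E-box, which SREBPs also bind, as CACGTG.
CYP51A1: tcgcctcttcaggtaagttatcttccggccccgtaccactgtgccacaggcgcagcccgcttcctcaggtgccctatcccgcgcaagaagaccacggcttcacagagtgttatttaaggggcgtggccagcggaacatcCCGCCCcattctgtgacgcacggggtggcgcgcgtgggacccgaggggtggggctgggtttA
SC5D: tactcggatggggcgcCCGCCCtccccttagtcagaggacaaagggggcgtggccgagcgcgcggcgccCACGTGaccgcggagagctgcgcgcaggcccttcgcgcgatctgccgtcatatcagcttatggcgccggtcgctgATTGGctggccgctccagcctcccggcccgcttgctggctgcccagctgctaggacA
STARD4: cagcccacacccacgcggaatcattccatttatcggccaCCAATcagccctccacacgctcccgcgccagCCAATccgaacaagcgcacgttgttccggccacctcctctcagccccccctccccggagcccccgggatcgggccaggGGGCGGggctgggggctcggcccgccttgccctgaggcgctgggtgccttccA
LSS: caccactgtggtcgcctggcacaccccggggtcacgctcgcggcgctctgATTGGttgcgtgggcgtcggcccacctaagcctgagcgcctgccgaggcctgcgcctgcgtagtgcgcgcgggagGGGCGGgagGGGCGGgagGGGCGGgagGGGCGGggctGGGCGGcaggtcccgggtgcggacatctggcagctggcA
HMGCS1: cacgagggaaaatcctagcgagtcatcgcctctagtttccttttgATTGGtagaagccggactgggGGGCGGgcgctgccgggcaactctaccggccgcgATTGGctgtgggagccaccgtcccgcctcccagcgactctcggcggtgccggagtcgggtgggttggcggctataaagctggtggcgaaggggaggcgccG
SREBF2: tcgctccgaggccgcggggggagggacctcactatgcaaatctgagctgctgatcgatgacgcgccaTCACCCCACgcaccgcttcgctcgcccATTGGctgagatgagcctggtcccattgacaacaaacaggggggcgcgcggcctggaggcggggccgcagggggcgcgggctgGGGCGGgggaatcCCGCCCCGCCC
MSMO1: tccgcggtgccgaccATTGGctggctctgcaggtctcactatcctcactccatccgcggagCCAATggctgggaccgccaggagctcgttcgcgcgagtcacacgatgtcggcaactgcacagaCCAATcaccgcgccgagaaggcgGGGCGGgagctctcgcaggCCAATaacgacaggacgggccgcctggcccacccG

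CYP51A1 showed a single GC box in this stretch and no CCAAT, while STARD4, SC5D and LSS each held at least 1 CCAAT in either orientation. LSS had 5 GC boxes in a row within 75 bases of its start, and MSMO1 had 4 CCAAT matches. SREBF2 held a match to TCACNCCAC, 133 bases before its start, and was the 1 gene of the 30 to do so. Over the whole windows, CCAAT was found in 26 of 41 (63.4%), against 34.6% of all 35116 RefSeq windows and 35.0% of the 16455 windows of genes compared here. At least 2 CCAAT matches were found in 43.9% of these windows, against 12.3% of the windows of compared genes. GGGCGG was found in 90.2%, against 64.7% of the windows of compared genes, and CACGTG in 12.2%, against 9.26%. TCACNCCAC was found in 2.44%, against 1.09%. Matches were counted also where they share bases with another match, and windows of the same gene can overlap. A match is a run of letters and not a measured binding site.

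In control cells the levels of these genes per kb covered a wide range. MYLIP, a ubiquitin ligase that degrades lipoprotein receptors, was the highest at 216, 204 and 223 normalized counts per kb in KO1, KO2 and control, and FASN, the fatty acid synthase gene, came next in control at 107, 95.9 and 126. In control, MYLIP lay at percentile 96.7 and FASN at percentile 92.6 of 12525 compared protein-coding genes. PMVK, ACAT2, ACLY and NSDHL followed with 91.3 to 96.2 per kb in control. At the low end stood FADS2, INSIG2, STARD4, LSS and CYP51A1, with 11.7 to 15.3 per kb in control, between percentiles 21.5 and 27.9. HSD17B7, a reductase of sterol demethylation, was nearly silent at 1.87, 1.33 and 1.61 per kb in KO1, KO2 and control. Its mean count of 6.61 missed the minimum, so 33 of the 34 genes were compared, and each of these averaged 50 counts or more. The genes with the highest ratios to control, CYP51A1, STARD4 and SC5D, were among the lower ones in control. Control is the denominator of these ratios, so choosing the highest ratios favours genes with low control values. CYP51A1, STARD4 and SC5D each stood at a higher percentile in both clones than in control. A link between level and ratio was not tested.

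**Figure D1:**
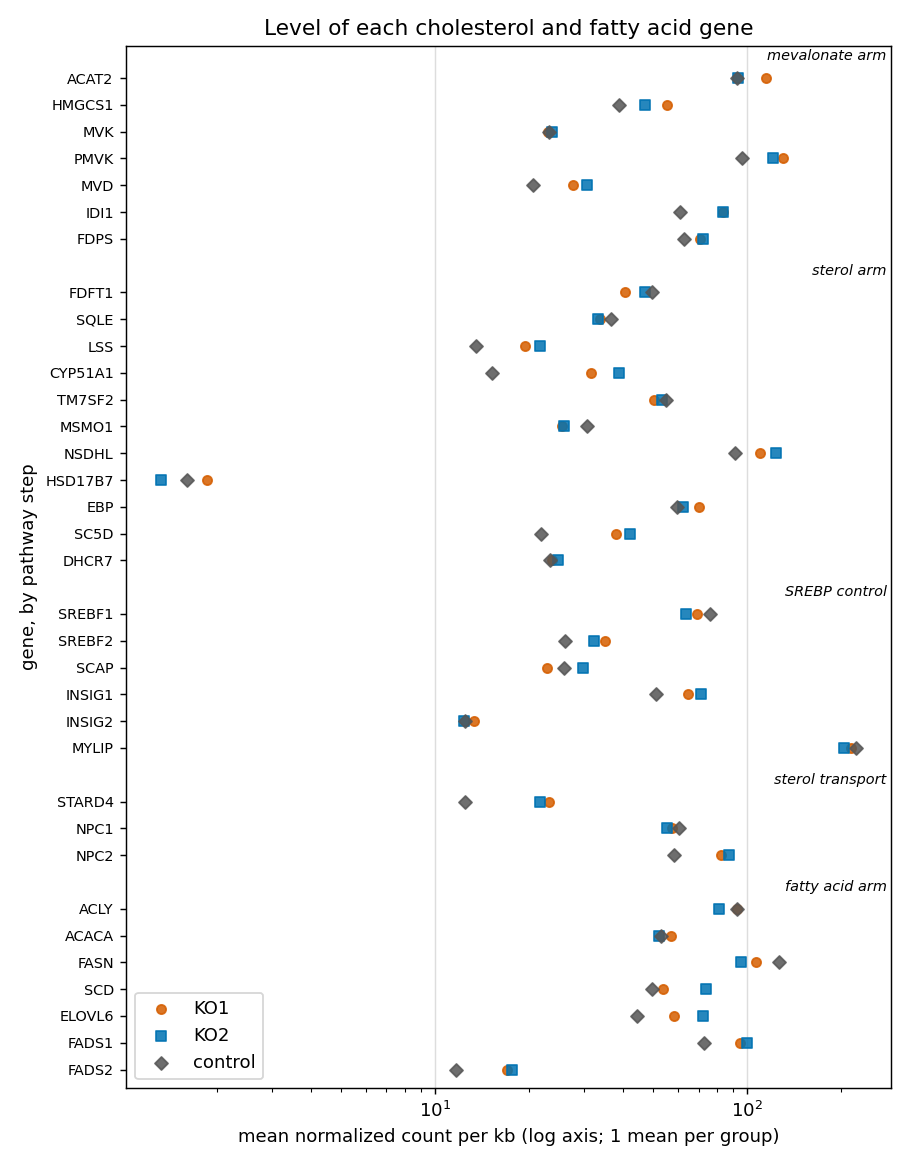
Level of each of the 34 genes in mean normalized counts per kb on a log axis, with 1 point for the mean of KO1, KO2 and control, ordered by pathway step. CYP51A1, SC5D, STARD4 and LSS show control well left of both clones, whereas MVK, DHCR7 and INSIG2 show 3 points close together.

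In KO1, 3 of 33 genes exceeded control by 1.5-fold or more (9.09%), against 6.93% of all 17149 compared genes and 4.22% of the 11917 genes that averaged 50 counts or more. None of the 33 was at least 1.5-fold lower, against a background of 4.94% and, from 50 counts up, 2.27%. In KO2, 7 of 33 were at least 1.5-fold higher (21.2%), against 9.76% and, from 50 counts up, 7.33%, and again none was at least 1.5-fold lower, against 7.23% and 3.47%. The more common pattern was a small difference: 23 of 33 genes lay above control in KO1, against 49.2% of all compared genes, and 22 of 33 in KO2, against 49.5%. The median log2 ratio of the 33 genes was 0.23 in KO1 (range -0.29 to 1.03) and 0.20 in KO2 (range -0.40 to 1.33). The clones share their control, and its error would enter both medians alike. Summed over the 33 genes, the levels came to 2014 per kb in KO1, 2017 in KO2 and 1789 in control. The same sum over all 17149 compared genes was also above control in each clone, at 1.69e+06 in KO1, 1.82e+06 in KO2 and 1.65e+06 in control. An excess in these sums is therefore not particular to the 33 genes. CYP51A1 was the 1 gene at least 2-fold higher, against 2.27% of compared genes in KO1 and 3.34% in KO2.

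**Figure D2:**
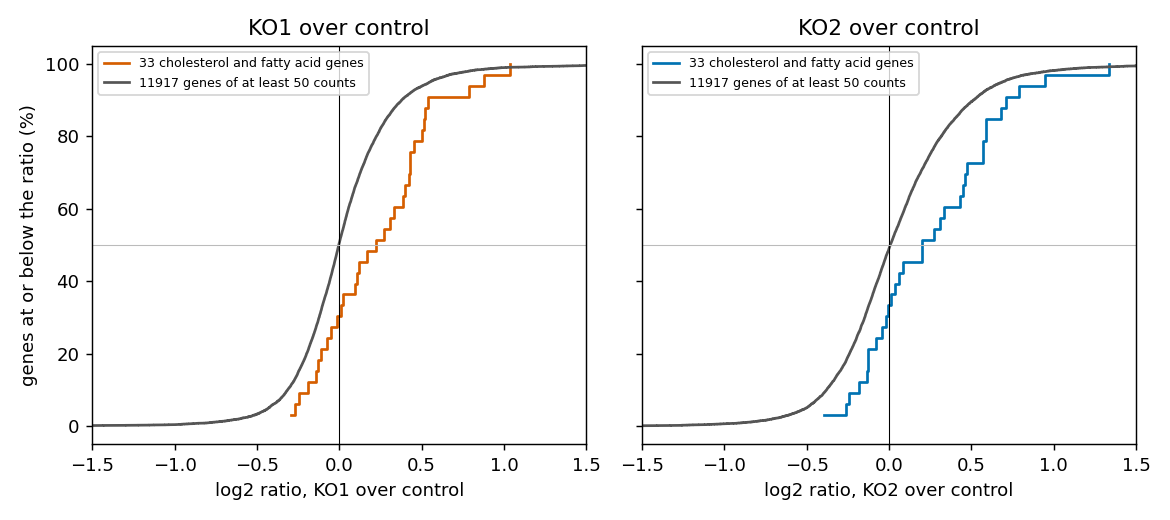
Cumulative share of genes (%) by log2 ratio to control in KO1 (left) and KO2 (right), for the 33 cholesterol and fatty acid genes (coloured) and the 11917 genes that averaged 50 counts or more (grey). The coloured steps lie to the right of the grey curve, with medians of 0.23 in KO1 and 0.20 in KO2.

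The distance between the clones gave a scale for these ratios. For genes of 50 to 200 counts, 95% of log2 ratios of KO2 over KO1 fell between -0.50 and 0.63, and for genes of 200 to 1000 counts between -0.35 and 0.53. This band includes true clone differences and does not replace an error between replicates. In KO1, 3 of the 33 genes lay above this band, against 4.36% of compared genes, and 0 below it, against 4.25%. In KO2, 7 lay above it, against 7.12%, and 1, FASN, below it, against 6.78%. The 7 were CYP51A1, SC5D, LSS, STARD4, NPC2, ELOVL6 and SCD. They are not the same 7 as those at least 1.5-fold higher, which include FADS2 and not SCD. FASN was judged by the band for genes of 1000 counts or more, -0.38 to 0.58.

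The mevalonate arm turns acetyl-CoA into farnesyl diphosphate. Its 7 genes had a median log2 ratio of 0.42 in KO1 and 0.27 in KO2, and none reached 1.5-fold. HMGCS1, the HMG-CoA synthase, had 55.6, 47.0 and 38.8 normalized counts per kb in KO1, KO2 and control, log2 ratios to control of 0.52 in KO1 and 0.27 in KO2. Both clones stood above control, KO1 further than KO2. PMVK, the phosphomevalonate kinase, had 130.1, 121 and 96.2 per kb in KO1, KO2 and control (log2 ratios 0.43 and 0.33 in KO1 and KO2). The decarboxylase gene MVD had 27.7, 30.7 and 20.6 (0.42 and 0.57). The isomerase gene IDI1, which makes the second building block of isoprenoids, had 83.9, 83.7 and 61.2 (0.45 and 0.45). These 4 genes were higher in each clone than in control by less than 1.5-fold, and MVD in KO2 came nearest to it. FDPS, the farnesyl diphosphate synthase, was closer to control at 70.6, 72.04 and 62.7 per kb. The mevalonate kinase gene MVK hardly differed, at 23.02, 23.8 and 23.3. ACAT2, the thiolase that joins acetyl-CoA units, had 115, 93.55 and 93.0 per kb, above control in KO1 (0.31) and level with it in KO2 (0.01).

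The sterol arm runs from squalene to cholesterol, and its 10 compared genes went in both directions, with medians of 0.12 in KO1 and 0.07 in KO2. The highest ratio of all 34 genes was that of CYP51A1 (ENSG00000001630; GRCh38 chromosome 7, 92084987 to 92134803, minus strand), the lanosterol demethylase. It had 31.6 normalized counts per kb in KO1, 38.9 in KO2 and 15.3 in control, 2.05-fold and 2.52-fold higher in KO1 and KO2 (log2 ratios 1.03 and 1.33). The mean of each clone was more than double that of control. SC5D (ENSG00000109929; chromosome 11, 121292681 to 121313410, plus strand), the desaturase that places a double bond in the sterol ring, had 38.0, 42.3 and 21.9 per kb, log2 ratios of 0.79 and 0.95. LSS (ENSG00000160285; chromosome 21, 46188141 to 46228824, minus strand), the lanosterol synthase just before CYP51A1 in the pathway, had 19.5, 21.8 and 13.5 per kb, log2 ratios of 0.52 and 0.68. SC5D passed 1.5-fold in each clone, while LSS passed it in KO2 and missed it in KO1.

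Other enzymes of the arm lay below control, near it or modestly above it. FDFT1, the squalene synthase at the branch point, had 40.6, 47.0 and 49.7 normalized counts per kb in KO1, KO2 and control (log2 ratios -0.29 and -0.08), and the squalene epoxidase gene SQLE had 33.9, 33.3 and 36.6 (-0.11 and -0.14). MSMO1, the methylsterol oxidase that acts after CYP51A1, had 25.5, 25.97 and 30.8 (-0.27 and -0.24). All 3 were below control in each clone by less than 1.5-fold, and lay within the spread between the clones. NSDHL, a sterol dehydrogenase, had 110.4, 123 and 91.3 per kb (0.27 and 0.43). EBP, the sterol isomerase, had 70.0, 62.4 and 59.75 (0.23 and 0.06). The reductase genes TM7SF2 (50.3, 53.4 and 54.97 per kb) and DHCR7, which completes cholesterol by 1 route (23.8, 24.9 and 23.4), had log2 ratios between -0.13 and 0.08.

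**Figure D3:**
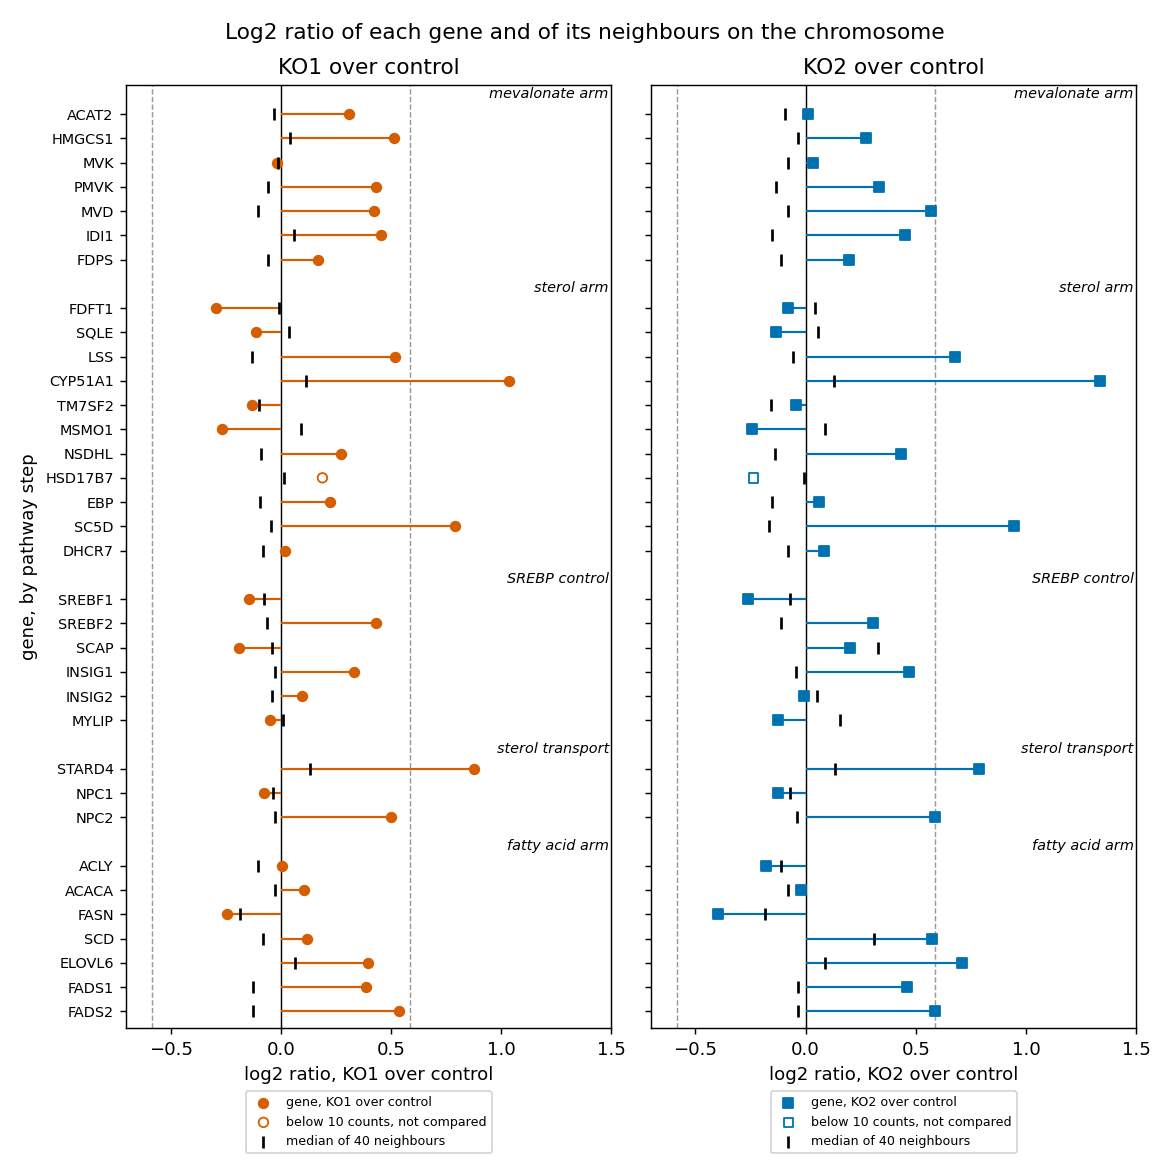
Log2 ratio of each gene to control in KO1 (left, circles) and KO2 (right, squares), ordered by pathway step, with the median ratio of its 40 nearest compared genes on the chromosome as a black tick and 1.5-fold as dashed lines. CYP51A1, SC5D and STARD4 pass 1.5-fold in each clone and lie far from their ticks, while the ticks of SCAP and SCD are moved to the right in KO2. HSD17B7 was not compared and is drawn open.

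Among the regulators, SREBF2, whose product favours sterol genes, had 35.2, 32.2 and 26.04 normalized counts per kb in KO1, KO2 and control, log2 ratios of 0.43 and 0.31. SREBF1, whose product favours fatty acid genes, had 69.1, 63.6 and 76.3 per kb and lay below control (-0.14 and -0.26). The 2 factor genes thus stood on opposite sides of control, each by less than 1.5-fold. INSIG1, itself an SREBP target, had 64.6, 71.2 and 51.2 per kb (0.33 and 0.47), whereas its relative INSIG2 had 13.4, 12.4 and 12.5 (0.10 and -0.01). SCAP had 22.8 per kb in KO1, 29.9 in KO2 and 25.98 in control, below control in KO1 (-0.19) and above it in KO2 (0.20). MYLIP, a target of the sterol-sensing LXR receptors, had log2 ratios of -0.05 and -0.13. None of these 6 genes reached 1.5-fold in either clone.

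Of the transport genes, STARD4 (ENSG00000164211; chromosome 5, 111496033 to 111512590, minus strand), a soluble carrier of sterols between membranes, had 23.1, 21.7 and 12.5 normalized counts per kb in KO1, KO2 and control, log2 ratios of 0.88 and 0.79. NPC2, the lysosomal cholesterol carrier, had 82.8, 87.8 and 58.3 (0.50 and 0.59). Its partner in the lysosomal membrane, NPC1, had 57.3, 55.2 and 60.3 (-0.07 and -0.13). STARD4 passed 1.5-fold in each clone, NPC2 only just in KO2, and NPC1 in neither.

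In the fatty acid arm the early steps lay near or below control and the later ones above it. The split was not clean in KO1, where ACACA (0.11) and SCD (0.12) had like ratios. ACLY, which makes cytosolic acetyl-CoA from citrate, had 93.0, 81.5 and 92.5 normalized counts per kb in KO1, KO2 and control, log2 ratios of 0.01 and -0.18. ACACA, the acetyl-CoA carboxylase, had 57.0, 52.2 and 53.0 (0.11 and -0.02). FASN had 107, 95.9 and 126 (-0.24 and -0.40), the lowest ratio of the 33 genes in KO2. The 40 nearest genes of FASN had medians of -0.19 in KO1 and -0.18 in KO2. After their subtraction FASN was at -0.06 in KO1 and -0.21 in KO2. The genes of this arm whose enzymes lengthen or desaturate fatty acids, ELOVL6, SCD, FADS1 and FADS2, were above control. ELOVL6, an elongase of saturated fatty acids, had 58.4, 72.4 and 44.3 per kb (0.40 and 0.71), and SCD, the stearoyl-CoA desaturase, had 53.9, 73.8 and 49.6 (0.12 and 0.57). The desaturase genes of polyunsaturated fatty acids, FADS1 (94.8, 99.9 and 72.6 per kb) and FADS2 (16.98, 17.6 and 11.7), had log2 ratios of 0.39 and 0.54 in KO1 and 0.46 and 0.59 in KO2. Around the 1.5-fold line in KO2, FADS2 and NPC2 lay just above it at 0.59, and SCD and MVD just below it at 0.57. FADS1 and FADS2 are neighbours on chromosome 11 whose annotated exons share 490 bases on opposite strands, so part of their reads may be the same.

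Position on the chromosome was set beside each gene because broad segments differ between these clones. The medians of the 40 nearest compared genes ranged from -0.19 to 0.13 in KO1 and from -0.18 to 0.33 in KO2. For CYP51A1 they were 0.12 and 0.13, for SC5D -0.04 and -0.17, for STARD4 0.13 and 0.13 and for LSS -0.13 and -0.06, each far below the gene's own ratio. SCAP on chromosome 3 and SCD on chromosome 10 had neighbours at 0.33 and 0.31 in KO2 and at -0.04 and -0.08 in KO1. After subtraction of the neighbours' median, SCD was at 0.26 and SCAP at -0.13 in KO2. Over the 33 genes, the median after subtraction was 0.32 in KO1 and 0.26 in KO2, and 23 genes lay above their neighbours in each clone.

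Compared directly, which involves no control values, KO2 and KO1 differed little over these genes. None of the 33 differed by 1.5-fold between the clones, against 4.37% of compared genes higher and 3.80% lower in KO2 (2.53% and 1.11% from 50 counts up), 18 of 33 were above KO1 in KO2, against 50.0%, and the median log2 ratio of KO2 over KO1 was 0.03 (range -0.30 to 0.45). The highest ratios were those of SCD (0.45), SCAP (0.39), ELOVL6 (0.31) and CYP51A1 (0.30), and the lowest those of ACAT2 (-0.30) and HMGCS1 (-0.24). The neighbours of SCD and SCAP had medians of 0.39 and 0.35 in this comparison, those of ELOVL6 and CYP51A1 of 0.04 and -0.04. Without values per replicate, differences of this size remain unresolved.

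Of the 34 genes, 17 share annotated exon bases with a gene of the other strand. The strand setting of the authors' counting is not given in the sources used here, so reads in the shared bases cannot be told apart. The ratios of noncoding partners varied in size and direction. CYP51A1-AS1, which shares 138 exon bases with CYP51A1, had mean normalized counts of 67.8 in KO1, 66.8 in KO2 and 20.5 in control, log2 ratios of 1.68 and 1.66, larger than those of CYP51A1 itself (128.6, 158.6 and 62.3 counts). AKAP9, a protein-coding gene that shares 108 exon bases with CYP51A1, was at 299, 285 and 319 counts, below control in each clone. On the strand of CYP51A1, the protein-coding genes ENSG00000285772 and ENSG00000289027 share 2844 and 2827 exon bases with it. No counts were found for them. STARD4-AS1 had 12.5, 11.5 and 4.74 counts, which is under the minimum of 10 on average. SREBF2-AS1 had 48.1, 51.4 and 32.9 counts (0.53 and 0.63), and IDI2-AS1, which overlaps IDI1, had 34.8, 31.8 and 28.7 (0.27 and 0.15). RUSC1-AS1, which shares 693 exon bases with FDPS, went the other way with 119, 118 and 168 counts (-0.49 and -0.50). CYP51A1-AS1, SREBF2-AS1 and IDI2-AS1 were thus above control in each clone, and RUSC1-AS1 was below it. Of all compared genes, 49.2% lay above control in KO1 and 49.5% in KO2. STARD4-AS1 was not compared. These 5 noncoding genes are the partners named as antisense RNAs. The other compared noncoding partners had log2 ratios in KO1 and KO2 of -0.09 and -0.40 (SOD2-OT1, with ACAT2), 0.52 and 0.24 (ENSG00000228404, with LSS) and 0.21 and 0.04 (ENSG00000255046, with FDFT1).

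**Figure D4:**
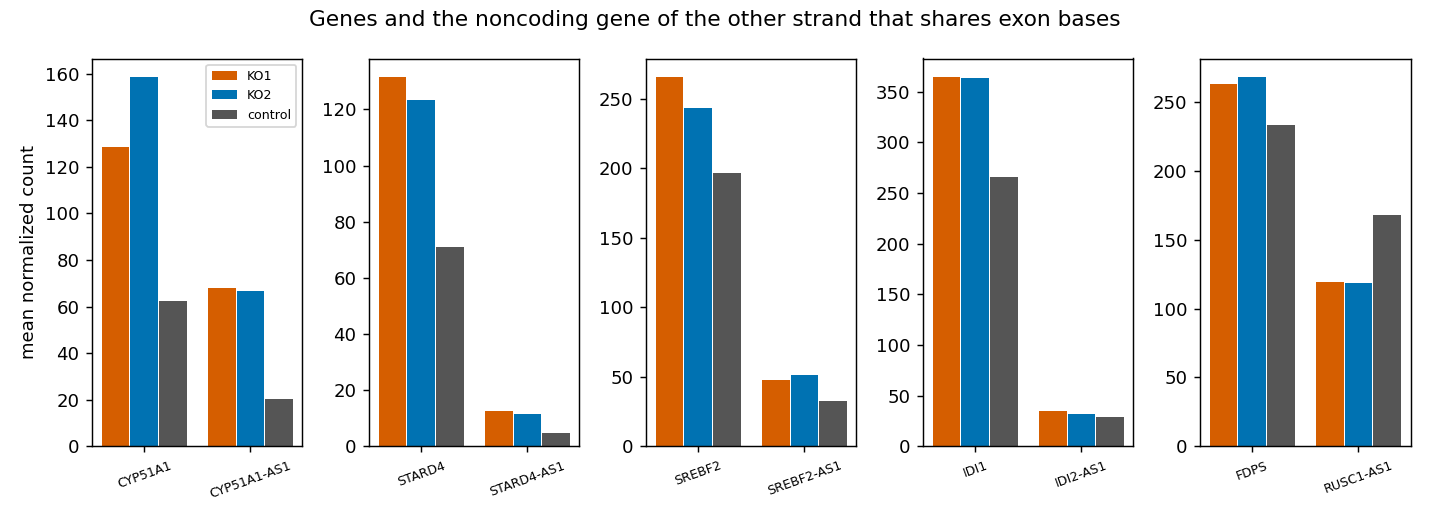
Mean normalized counts in KO1, KO2 and control (bars, from 0, separate vertical scale per panel) for 5 genes and the noncoding gene of the opposite strand that shares exon bases with each. CYP51A1-AS1 stands at 67.8, 66.8 and 20.5 counts beside CYP51A1 at 128.6, 158.6 and 62.3, and RUSC1-AS1 is lower in the clones while FDPS is slightly higher.

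PCIF1 acts on transcripts that begin with adenosine, so the annotated start base was read from the RefSeq windows. It was A in 12 of 41 windows of these genes (29.3%), against 46.0% of the windows of compared genes. CYP51A1, STARD4 and LSS have A in their listed window, as do ELOVL6, SCD, SREBF1, MYLIP, EBP and NSDHL. The 9 compared genes with A in every listed window had median log2 ratios of 0.27 in KO1 and 0.57 in KO2, and the 17 with another base in every window 0.17 and 0.20. For all compared genes with windows these medians were 0.01 and 0.03 with A (4320 genes) and -0.01 and -0.00 with another base (5304 genes). The remaining 3 genes, FADS2, DHCR7 and SC5D, have windows of both kinds. Annotated starts need not be those used in these cells, and with 9 genes the groups overlap widely, from SREBF1 below control to CYP51A1.

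Other genes around these pathways were taken from lists of related function. Of 9 genes listed as cofactors of sterol synthesis or as acting near it, 7 lay above control in KO1 and 8 in KO2. The shares of all compared genes were 49.2% and 49.5%. The electron donors of the oxidations did not move together. CYB5R3 was below control in each clone (-0.31 and -0.47), while POR (0.45 and 0.42) and CYB5A (0.04 and 0.11) were above it. CYB5R3, POR and CYB5A were chosen after their values were seen. The medians of the 9 genes were 0.19 and 0.25, and none was beyond 1.5-fold. CYB5B, a membrane cytochrome, had 415, 408 and 282 counts in KO1, KO2 and control (0.55 and 0.53), and ACAT1, the mitochondrial thiolase, 459, 529 and 364 (0.33 and 0.54). The 10 genes of SREBP processing and turnover had medians of -0.13 and -0.08. PAQR3, a Golgi anchor of SCAP, had 239, 263 and 380.3 counts (-0.67 and -0.53) and was the 1 gene of this list beyond 1.5-fold, in KO1, where 4.94% of all compared genes were lower by that much. SPRING1, which aids SREBP cleavage, had 174, 170.2 and 200.4 counts. The 8 genes of factors that act with SREBPs had medians of -0.02 and -0.03, with USF1 at 551, 512 and 417 counts and USF2 at 171, 168 and 222. The 11 genes of the isoprenoid branch, which leaves the pathway after farnesyl diphosphate, had medians of 0.05 and 0.02 and none beyond 1.5-fold. By the size of the mean ratio over both clones, the first of them were FNTB, a farnesyltransferase subunit (119.6, 120.5 and 92.0 counts), and PDSS1, which builds the ubiquinone tail (153, 126 and 110.3). The highest ratio in KO2 alone was that of GGPS1, the geranylgeranyl diphosphate synthase (0.05 in KO1 and 0.49 in KO2), chosen after its values were seen.

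Among 17 compared genes of other steps of fatty acid synthesis, none was beyond 1.5-fold in KO1, and 4 were higher by that much in KO2, against 9.76% of all compared genes. Their medians were 0.10 and 0.08. OXSM, a mitochondrial synthase on chromosome 3, had 219, 316 and 158 counts in KO1, KO2 and control (0.47 and 1.00), and its neighbours had medians of 0.07 and 0.50. ACSS2, which makes acetyl-CoA from acetate, had 93.2, 103 and 63.2 counts (0.55 and 0.69), with neighbours at 0.00 and -0.04. The others higher by that much in KO2 were the elongase genes ELOVL5 (0.61 in KO2) and ELOVL7 (0.81 in KO2). Further elongase and desaturase genes lay near control: ELOVL1 (-0.07 and -0.09), ELOVL4 (0.00 and -0.09), SCD5 (-0.08 and 0.02) and FADS3 (0.04 and -0.00). TECR, also of this list, was below control (-0.16 and -0.49). ELOVL5, ELOVL7 and the genes named after them were chosen after their values were seen. The 5 compared genes of LXR signalling and sterol efflux had medians of -0.12 and -0.12, with NR1H3, an LXR gene, at 161, 227 and 167 counts and the efflux pump gene ABCA1 at 39.5, 38.5 and 43.4. The 12 compared genes of sterol storage and transfer had medians of -0.05 and -0.17. At least 1.5-fold higher was 1 of them in KO1 and 1 in KO2, against 6.93% and 9.76% of all compared genes, and 3 and 2 were lower by that much, against 4.94% and 7.23%. SOAT2, which esterifies cholesterol, had 36.2, 27.1 and 59.5 counts (-0.70 and -1.11), and OSBP2, an oxysterol-binding protein gene, 17.2, 14.9 and 31.2 (-0.82 and -1.01). Both averaged under 50 counts. In KO1 they lay within the spread between the clones at such counts, and in KO2 below it, OSBP2 only just. The gene on the higher side was STARD5, another sterol carrier of the START family, with 488, 465 and 256 counts (0.93 and 0.86), and the third lower gene in KO1 was GRAMD1B (-0.68), both chosen after their values were seen.

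**Figure D5:**
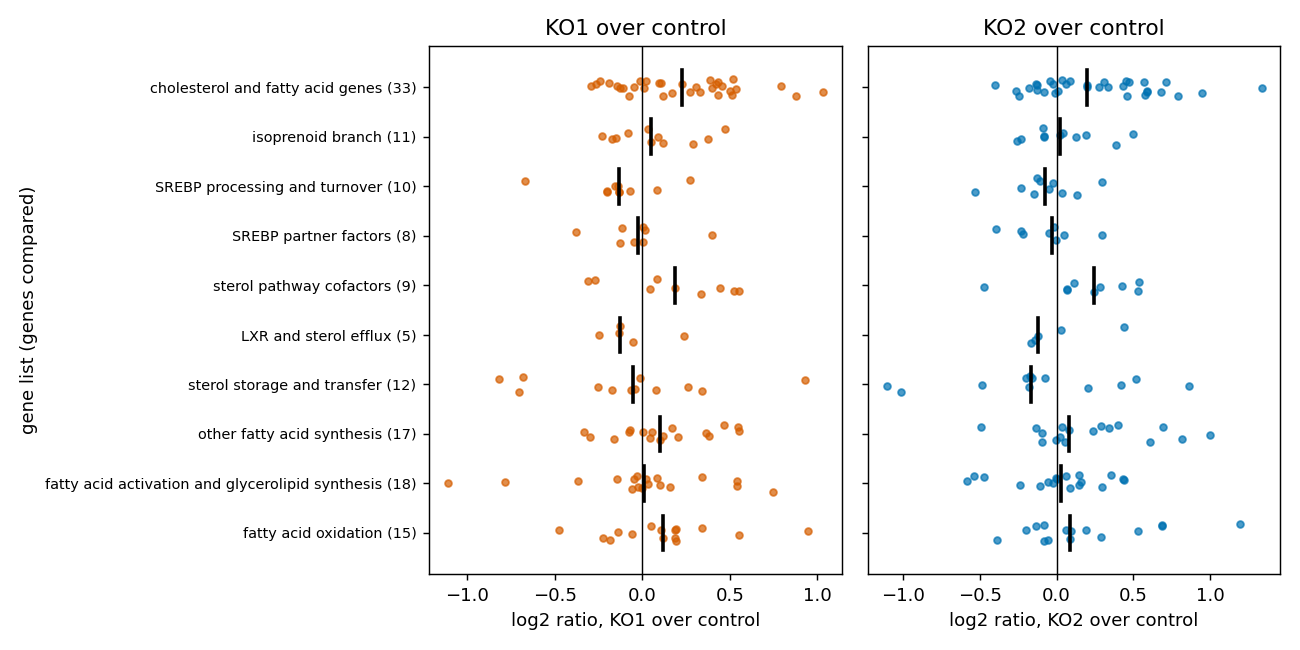
Log2 ratio to control in KO1 (left) and KO2 (right) of each compared gene (points, spread vertically for legibility) of the cholesterol and fatty acid genes and of 9 related lists, with the median of each list as a black bar. The medians of the cholesterol and fatty acid genes (0.23 and 0.20) and of the sterol cofactors (0.19 and 0.25) lie to the right of 0, and those of SREBP processing (-0.13 and -0.08), of sterol efflux (-0.12 and -0.12) and of sterol storage and transfer (-0.05 and -0.17) to the left.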

How the data were processed

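PRO-seq was done on 9 libraries of MEL624 cells in 3 groups. Per the file headers, the authors deposited mean normalized counts per kb, a signal per gene with 1 mean per group. Tools listed per the submitters' processing notes, with no role or order, are DESeq2, featureCounts, Bowtie 1.2.2 and cutadapt 1.14, and the builds are GRCh38.p12, hg38 and dm3, a Drosophila build. Which feature was counted, on which strand and how counts were scaled is not given in the sources used here, so a shift shared by every gene could be hidden. The header has 6 names over rows of 5 cells. The cell after the identifier, read as gene length in bases, equals the merged exon length of GENCODE release 44 for 64.4% of matched identifiers, so the gene symbol is taken to be the missing cell and the last 3 cells as control, KO1 and KO2. Intronic reads are thus possibly left out.

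Values were multiplied by length in kb, and log2 ratios used a pseudocount of 1 and genes averaging 10 counts or more. Depth per library is not known. The summed normalized counts, 3759168 in KO1, 3823178 in KO2 and 3760730 in control, follow from the scaling. Symbols and positions come from GENCODE release 44 (GRCh38) and promoter windows from RefSeq. Neighbours are the 40 nearest compared genes on the chromosome. The genes and lists were chosen with earlier results of these data known. All 34 genes are named, and in each related list the 2 compared genes with the largest mean log2 ratio in size over both clones. Others are said to be chosen after their values were seen. The code for ratios and calls was tested on simulated counts, with planted changes well beyond 1.5-fold and counting noise only. That test does not cover calls near 1.5-fold or variation between replicates or clones. Alternatives were other scalings, pseudocounts of 0.5 and 5, a floor of 50 or none, and the scale per kb. The work was done in Python 3.11.15 with pandas 2.3.3, scipy 1.17.1, numpy 2.4.6 and, for plots, matplotlib 3.10.9.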

Additional observations from a re-analysis of the deposited data

How the results depend on the processing

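With values taken per kb, no floor or a floor of 50 counts, pseudocounts of 5 and 0.5, quantile normalization and rescaling by the median of ratios, the median log2 ratio of the cholesterol and fatty acid genes stayed above 0, from 0.21 to 0.23 in KO1 and from 0.17 to 0.22 in KO2. The count at least 1.5-fold higher stayed at 3 in KO1 and ran from 5 to 9 in KO2, where several genes lie near the line. None was at least 1.5-fold lower under any of these. Genes above control numbered 23 in KO1, or 24 with no floor. In KO2 they ran from 20 under quantile normalization to 23 under rescaling by the median of ratios, against 22 as deposited. ACAT2 and MVK, both close to 0 in KO2, fell just below it under quantile normalization. The median of KO2 over KO1 was -0.00 under quantile normalization, against 0.03 as deposited. Subtracting the median of 40 neighbours, an alternative added after the data were seen, gave 5 genes at least 1.5-fold higher in KO1, LSS and FADS2 joining the 3, and 9 in KO2, with medians of 0.32 and 0.26. No paired analysis was possible because the table holds 1 mean per group, and for the same reason no replicate could be left out. Values are rounded to 0.01 per kb, and the depth of single libraries, which limits the precision, is not known.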

Other observations

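Genes of fatty acid breakdown and of glycerolipid synthesis were also read. Of 15 compared genes of fatty acid oxidation, 1 was at least 1.5-fold higher in KO1 and 3 in KO2, against 6.93% and 9.76% of all compared genes. None was lower by that much, and the medians were 0.12 and 0.09. SLC25A20, the carnitine carrier of the mitochondrial membrane, had 38.7, 45.9 and 19.6 counts in KO1, KO2 and control (0.95 and 1.19), and its neighbours on chromosome 3 had medians of -0.04 and 0.35. ETFDH, which passes electrons from fatty acid oxidation to ubiquinone, had 201, 198 and 137 counts (0.55 and 0.53). The other two genes higher in KO2, ACADM (0.69) and ECHS1 (0.69, with neighbours on chromosome 10 at 0.27), were chosen after their values were seen. Of 18 compared genes of fatty acid activation and glycerolipid synthesis, 1 was at least 1.5-fold higher in KO1, against 6.93% of all compared genes: ACSL5 (0.75, chosen after its values were seen). In KO1 2 and in KO2 1 were lower by that much, against 4.94% and 7.23%, and the medians were 0.01 and 0.03. DGAT2, which makes triglycerides, had 9.25, 14.2 and 21.1 counts (-1.11 and -0.54), and LPIN3, a phosphatidate phosphatase gene, 13.6, 15.7 and 24.1 (-0.78 and -0.59). These low counts, and those of SLC25A20 above, have a wide spread between the clones, with a central 95% of -1.01 to 1.05 for counts of 10 to 50.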
